A study of Mus musculus with 8 samples.

Results

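The expression of 9 serpin genes was followed in the forebrain of aged TgCRND8 mice: Serpina3n, its neighbours in the Serpina3 cluster Serpina3m and Serpina3i, the intracellular inhibitors Serpinb1a and Serpinb6a, the secreted serpins Serpine2, Serpinf1 and Serpini1, and the collagen chaperone Serpinh1. They were chosen by symbol, matched to Ensembl identifiers, and all 9 were found among the 56748 genes of the count table. The samples were 4 libraries of TgCRND8 mice (Tg) and 4 of non-transgenic littermates (NTg), all aged 18 months, from snap-frozen, pulverised forebrain. TgCRND8 mice overexpress APP; as background, the line carries human APP with familial Alzheimer mutations behind the hamster prion protein promoter, so that the transgene and the pathology it brings cannot be told apart in the Tg libraries. The labels name no treatment other than age, and they leave unstated whether every library comes from its own animal. Polyadenylated RNA was sequenced as paired-end reads of 75 bases, and levels are given as CPM, the count of a gene relative to the scaled total of its library.

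Serpins are a family of proteins that share one fold. Most are suicide inhibitors: a protease cuts an exposed reactive loop, the serpin snaps shut and the protease is trapped in a covalent complex, which cell surface receptors clear. Human SERPINA3, alpha-1-antichymotrypsin, is a known component of amyloid plaques, and mouse Serpina3n is among the genes best known for rising in reactive astrocytes and in oligodendrocytes near pathology. Serpini1, neuroserpin, is made by neurons and inhibits tissue plasminogen activator, and Serpine2, protease nexin-1, inhibits thrombin and plasminogen activators. Serpinf1 (PEDF) and Serpinh1 (Hsp47) have lost the inhibitory function.

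The Serpina3 genes of the mouse stand in a cluster of recent duplicates, so their sequences bear on how far the counts can be told apart. The coding sequence of Serpina3n, 1257 bases long in GENCODE M21, was identical to that of Serpina3m at 85.2% of aligned bases and to that of Serpina3i at 85.1%, against 58.2% to 61.4% for the other 6 members. Of the 1990 distinct windows of 75 bases in the Serpina3n transcript, 29 (1.46%) also occurred in another serpin transcript, and 0 occurred in those of Serpina3m or Serpina3i. Serpina3m shared 153 of 1585 windows (9.65%) with other serpins, 146 of them with Serpina3k, and Serpina3i shared 146 of 2205 (6.62%). Serpinb1a shared 7 of 2252 with Serpinb1b, and Serpinb6a, Serpine2, Serpinf1, Serpinh1 and Serpini1 shared 0. Counts of Serpina3m and Serpina3i are therefore uncertain where reads fell into shared windows, and a read with few mismatches may have been placed on the wrong copy.

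Promoter windows, 250 bases before to 50 after the start site, were taken from the RefSeq table (GRCm38.p6, an older build than the GRCm39 named for the counts) for 7 of the 9 members. Those of Serpina3n and Serpina3i are shown because both genes had higher counts in Tg, and that of Serpina3c, which is no member, because it is the closest to Serpina3n. Capitals mark matches, on either strand, to the STAT motif TTCNNNGAA, the AP-1 motif TGANTCA, the C/EBP motif TTGCNNAA or the glucocorticoid receptor hexamer AGAACA.
Serpina3n, chr12:104406458-104406757, plus strand: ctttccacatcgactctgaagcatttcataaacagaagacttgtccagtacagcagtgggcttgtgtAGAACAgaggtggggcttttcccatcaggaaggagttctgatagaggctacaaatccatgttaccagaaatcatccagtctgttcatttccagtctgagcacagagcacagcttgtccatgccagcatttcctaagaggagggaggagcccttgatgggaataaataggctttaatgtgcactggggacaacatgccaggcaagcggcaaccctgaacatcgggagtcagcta
Serpina3c, chr12:104153823-104154122, minus strand: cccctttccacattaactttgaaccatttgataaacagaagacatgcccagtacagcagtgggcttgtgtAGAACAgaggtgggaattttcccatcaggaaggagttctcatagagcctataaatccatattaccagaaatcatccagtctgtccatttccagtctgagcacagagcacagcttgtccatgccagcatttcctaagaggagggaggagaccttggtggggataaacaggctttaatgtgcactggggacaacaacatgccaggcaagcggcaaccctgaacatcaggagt
Serpina3i, chr12:104262872-104263171, plus strand: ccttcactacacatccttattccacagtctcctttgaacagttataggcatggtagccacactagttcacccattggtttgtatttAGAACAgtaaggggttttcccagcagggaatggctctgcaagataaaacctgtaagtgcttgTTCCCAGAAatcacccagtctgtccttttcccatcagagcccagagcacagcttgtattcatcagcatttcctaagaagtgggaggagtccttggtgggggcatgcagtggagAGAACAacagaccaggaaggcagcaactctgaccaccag
The Serpina3n and Serpina3c windows were identical at 275 of 294 aligned bases (93.5%), and Serpina3n and Serpina3i at 198 of 279 (71.0%). Serpina3n held 1 match, AGAACA at position -183 from the start site, and Serpina3c held the same hexamer at position -180. That hexamer occurs in 19.0% of the 32851 promoter windows of the table. Serpina3i held AGAACA at positions -164 and 11 and a STAT match, TTCCCAGAA, at position -102, a motif found in 8.3% of all windows. Of the other members, Serpinb6a held STAT matches in 1 of its 2 windows, and Serpine2, Serpinf1, Serpinh1 and Serpini1 held none of the 4 motifs, of which AP-1 occurs in 7.8% and C/EBP in 10.8% of all windows. A match is a description of the letters and does not show that a factor binds there.

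Library totals were 57129090 to 65242741 counts, and 21588 genes, 7 of the 9 members among them, were abundant enough to be tested with edgeR's quasi-likelihood test. App, the gene that checks the labels, stood at 1488 ± 98.4 CPM for NTg and 2851 ± 213 CPM for Tg (SD, n = 4; edgeR adjusted p = 0.00146), with no overlap between the genotypes. Markers of neurons, astrocytes, oligodendrocytes, microglia and vessels were all detected in all groups, with 0 genes of these lists at a count of 0 throughout. Tg replicate 1 stood apart from the other Tg libraries and nearer to NTg: its 10 microglial markers summed to 491 CPM, against 787 to 876 CPM in Tg replicates 2 to 4 and 366 to 503 CPM for NTg. The red blood cell markers of that library summed to 3003 CPM, against 448 to 732 CPM in Tg replicates 2 to 4 and 1282 to 3271 CPM for NTg. Results that rest on it are given with and without it. It was not the only atypical library, since NTg replicate 4 also differed from its group by the spread of counts between replicate pairs. The chi-square per degree of freedom was 39.4 to 48.9 for pairs with NTg replicate 4 and 31.0 to 41.7 for pairs with Tg replicate 1. Over all genes edgeR called 3 at a false discovery rate of 0.05 (0.0139% of those tested) and DESeq2 334 (1.55%).

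Serpina3n was the only one of the 7 tested members whose Tg libraries all lay above all NTg libraries. Its level was 44.3, 51.8, 42.7 and 33.5 CPM in the 4 NTg libraries and 54.7, 181, 149 and 186 CPM in the Tg libraries. Tg replicate 1, at 54.7 CPM, was barely above the highest NTg library, while the other Tg libraries lay close together, the highest being 1.25 times the lowest. The means were 43.1 ± 7.49 CPM for NTg and 143 ± 60.9 CPM for Tg (SD, n = 4), a 3.31-fold difference (log2 fold change 1.73, SE 0.33). The edgeR quasi-likelihood test gave an adjusted p of 0.121 over all genes, so the gene was not called, while DESeq2 called it at an adjusted p of 0.00205. Of all tested genes 20 (0.0926%) had a log2 fold change at least as large, and 2.62% had all Tg libraries above all NTg libraries. Without Tg replicate 1 the Tg mean was 172 ± 20.2 CPM (n = 3), the difference 3.99-fold (log2 fold change 2.00, SE 0.13) and the edgeR adjusted p 0.000356. Leaving out any other single library gave adjusted p of 0.165 to 0.366.

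The 10 astrocyte identity markers, such as the water channel Aqp4 and the glutamate transporters, had overlapping sums, 4128 to 4988 CPM over the NTg and 4333 to 4716 CPM over the Tg libraries. Of these 10, 7 had a higher mean in Tg, 2 were higher and 1 lower at an unadjusted p under 0.05, edgeR called 0, and DESeq2 called 1 in each direction. Over all genes, 4.68% were higher and 2.68% lower at that unadjusted p, and DESeq2 called 1.29% higher and 0.26% lower. The 10 oligodendrocyte markers, a cell type that can also express Serpina3n, summed to 8181 to 10196 CPM for NTg and 6960 to 8460 CPM for Tg. Microglial markers did move with it, all 10 having a higher mean in Tg, and their part in the result was not tested. In bulk tissue a change in the number of cells of a type and a change in RNA per cell cannot be told apart.

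**Figure D1:**
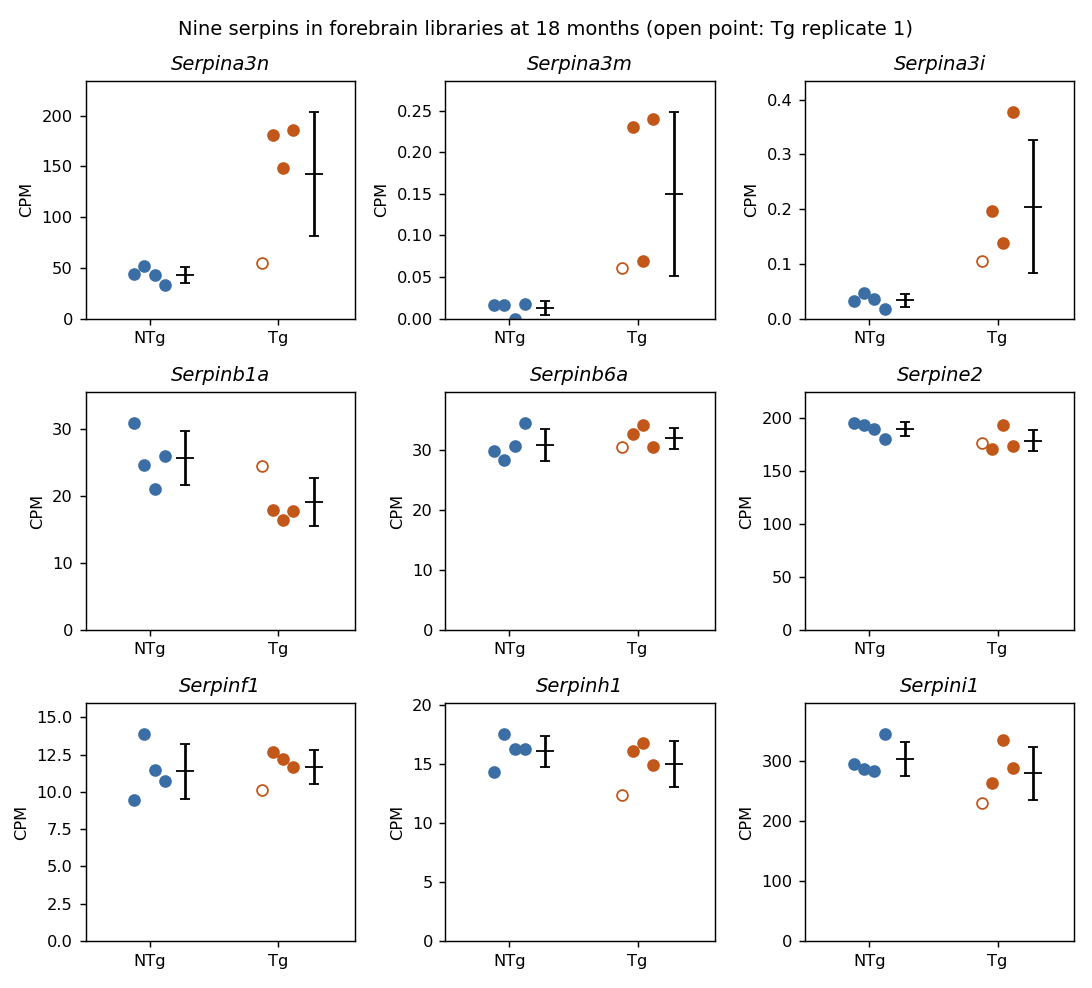
Level of each of the 9 serpins in CPM (y axis, from 0, with its own scale per gene) in the 4 NTg and 4 Tg libraries; each point is a library, the open point is Tg replicate 1, and the bar is the mean with its SD. Serpina3n stands at 33.5 to 51.8 CPM for NTg and at 54.7 to 186 CPM for Tg, while Serpinb6a, Serpine2, Serpinf1, Serpinh1 and Serpini1 overlap between the genotypes.

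The neighbours Serpina3m and Serpina3i were nearly silent in this tissue and did not pass the filter on low counts. Serpina3m had 1, 1, 0 and 1 counts in the NTg libraries and 4, 14, 4 and 14 in the Tg libraries. Serpina3i had 2, 3, 2 and 1 counts in NTg and 7, 12, 8 and 22 in Tg. Every Tg library was above every NTg library for both genes, Tg replicate 1 included, although the counts are few. The share of such low-count genes that did so was not computed. The ratio of the summed counts, scaled to library size, was 11.7 for Serpina3m (exact 95% interval 3.68 to 59.1, 3 against 36 counts) and 5.95 for Serpina3i (2.79 to 14.5, 8 against 49 counts). These intervals cover counting error only, and not the spread between libraries. Fitted with no filter on low counts, edgeR gave adjusted p = 0.0847 for Serpina3m and 0.0768 for Serpina3i, so neither was called, where 0.320% of genes were.

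Both genes had very few counts beside Serpina3n. Per 1000 Serpina3n counts, Serpina3m had 0.293 counts in NTg and 1.05 in Tg, and Serpina3i 0.781 and 1.43, each over the summed libraries of a genotype. Over single libraries Serpina3m ranged from 0 to 1.29 and Serpina3i from 0.526 to 2.03 per 1000. Whether some of these counts are misplaced Serpina3n reads was not tested. Serpina3c, whose promoter window is shown above, had 24 counts over the NTg and 19 over the Tg libraries (ratio 0.769, exact 95% interval 0.398 to 1.46).

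Serpina3n was then set against each other member within each library, which removes the scaling between libraries. The log2 ratio of Serpina3n to Serpini1 was -2.82 ± 0.38 in NTg and -1.10 ± 0.70 in Tg (SD, n = 4), a difference of 1.72. The ratio to Serpine2 differed by 1.68, from -2.16 ± 0.22 to -0.47 ± 0.84. Serpine2, at more than 4 times the CPM of Serpina3n in NTg, was matched by it in Tg replicates 2 and 4, where the log2 ratios were 0.08 and 0.10. The ratio differed by 2.02 for Serpinb1a, 1.55 for Serpinf1 and 1.70 for Serpinh1. For these 5 partners all Tg libraries lay above all NTg libraries, and each gave an exact two-sided permutation p of 0.0286, the smallest that 4 against 4 libraries allow (0.0457 when adjusted over the 8 ratios computed). All 5 ratios share the Serpina3n counts, so they are not independent tests and largely repeat the separation of Serpina3n itself. The adjusted value rests on their tie at the smallest p. How many of all genes would give such ratios was not computed. For Serpinb6a the difference was 1.54 with an exact permutation p of 0.0571, since NTg replicate 2 at 0.87 exceeded Tg replicate 1 at 0.84. For the paralogues the differences were -0.25 for Serpina3m and -0.13 for Serpina3i (exact permutation p = 0.543 and 0.600). These values depend on the prior count of 2 that was added. A prior count of 0.5 gave -1.21 and -0.64 (exact permutation p = 0.0857 for each), and raw counts gave -0.93 for Serpina3i (exact permutation p = 0.0286, before adjustment). A prior count of 5, which exceeds every NTg count of these genes and so shrinks their difference, gave 0.41 and 0.37.

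**Figure D2:**
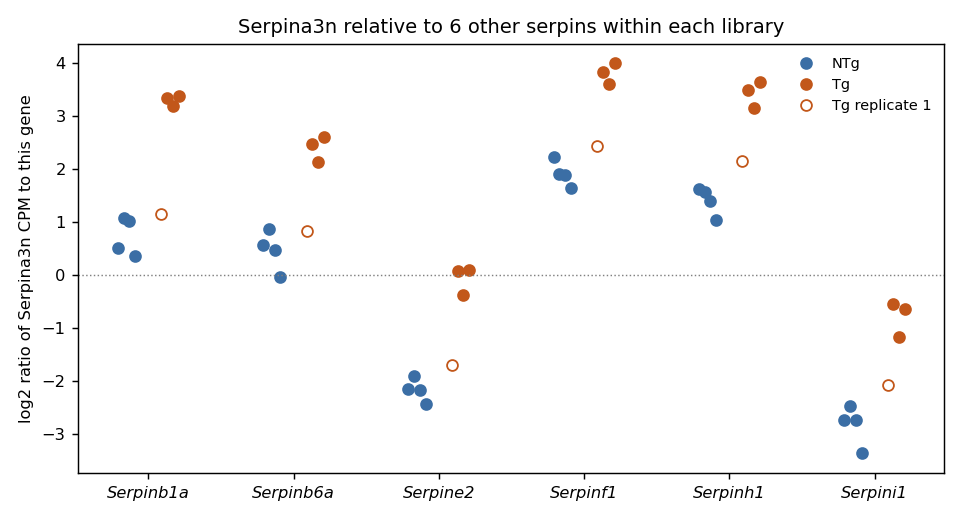
Log2 ratio of the Serpina3n level to that of 6 other serpins (x axis) within each library (y axis, log2 units, 0 means equal CPM); blue points are NTg, filled orange points Tg, and the open point is Tg replicate 1. Against Serpini1 the 4 NTg libraries lie between -3.36 and -2.47 and the Tg libraries between -2.07 and -0.54.

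Of the intracellular members, which protect cells from their own or leaked granule proteases, Serpinb1a had a lower mean in Tg that did not pass the test over all genes, and Serpinb6a had nearly equal means. Serpinb1a, an inhibitor of neutrophil elastase and related proteases, was at 30.9, 24.7, 21.1 and 26.0 CPM for NTg and 24.5, 17.9, 16.4 and 17.8 CPM for Tg. Tg replicate 1 lay among the NTg libraries, and the other 3 Tg libraries lay below all of them. The means were 25.7 ± 4.06 and 19.1 ± 3.61 CPM (SD, n = 4), a log2 difference of -0.42 with SE 0.14, with an edgeR p of 0.0147 and an adjusted p of 0.437, and DESeq2 did not call it (0.155). Without Tg replicate 1 the log2 fold change was -0.56 (SE 0.12), with an edgeR adjusted p of 0.0579, where 0.174% of genes were called lower, and a DESeq2 adjusted p of 0.000417, where 0.814% were.

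Other values moved with Serpinb1a. Red blood cell markers were low in the same 3 Tg libraries, as given above, and so were 8 endothelial markers, with a sum of 158 to 199.8 CPM there, 223 CPM for Tg replicate 1 and 214 to 257 CPM for NTg. Their part in the result was not tested. Neutrophil markers summed to only 2.65 to 9.35 CPM for NTg and 2.49 to 10.1 CPM for Tg. The near copy Serpinb1b was at 7.16 to 12.2 CPM for NTg and 3.29 to 12.8 CPM for Tg, highest in Tg replicate 1, and was not called (log2 fold change -0.22, edgeR adjusted p = 0.963). Its log2 fold change was -0.60 without Tg replicate 1 (edgeR adjusted p = 0.595).

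Serpinb6a, which inhibits cathepsin G among other proteases, was at 29.8, 28.3, 30.6 and 34.4 CPM for NTg and 30.5, 32.6, 34.1 and 30.5 CPM for Tg. The ranges overlapped almost entirely (a log2 difference of 0.05 with SE 0.07 and edgeR adjusted p = 0.944).

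The 2 abundant secreted inhibitors of the plasminogen and thrombin systems had slightly lower means in Tg, and neither passed the test. Serpini1, the neuronal serpin, was at 295, 286, 284 and 344 CPM for NTg and 230, 263, 335 and 289 CPM for Tg. The lowest value was Tg replicate 1, whose 10 neuronal markers also had the lowest sum, 6648 CPM against 7214 to 7598 CPM in Tg replicates 2 to 4 and 7243 to 7582 CPM for NTg; its part was not tested. The means were 302 ± 28.4 and 279 ± 44.2 CPM (SD, n = 4), a log2 difference of -0.11 with SE 0.11 and edgeR adjusted p = 0.919, and the log2 fold change was -0.03 without Tg replicate 1. Serpine2, made by glia and neurons, was the steadiest member in NTg, its highest library being 1.08 times its lowest. It was at 195, 193, 190.3 and 181 CPM for NTg and 177, 171, 194 and 174 CPM for Tg. Tg replicates 1, 2 and 4 lay below the whole NTg range by a few CPM and Tg replicate 3 within it (a log2 difference of -0.09 with SE 0.05 and edgeR adjusted p = 0.821).

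The non-inhibitory members, which in brain are best known from vascular and meningeal cells, did not pass the test either. Serpinf1, a secreted factor that restrains vessel growth, was at 9.46, 13.9, 11.5 and 10.7 CPM for NTg and 10.1, 12.7, 12.2 and 11.7 CPM for Tg (a log2 difference of 0.04 with SE 0.12 and edgeR adjusted p = 0.985). Serpinh1, the chaperone of procollagen in the endoplasmic reticulum, was at 14.3, 17.5, 16.3 and 16.2 CPM for NTg and 12.3, 16.1, 16.8 and 14.9 CPM for Tg (a log2 difference of -0.10 with SE 0.10 and edgeR adjusted p = 0.922). Except for Serpinh1 in Tg replicate 1, the Tg values of both genes fell inside the NTg ranges. The sum of 8 fibroblast and meningeal markers was 56.9 to 89.1 CPM for NTg and 63.0 to 87.0 CPM for Tg. Choroid plexus markers did not overlap, at 626 to 945 CPM for NTg and 321 to 583 CPM for Tg, and their part in these levels was not tested.

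As a set, 0 of the 7 tested members were called by edgeR over all genes, 2 had an unadjusted p under 0.05 (Serpina3n and Serpinb1a) where 7.36% of all genes did, DESeq2 called 1 where it called 1.55% of all genes, and limma-voom called 0. By direction edgeR called 0.00926% of all genes higher and 0.00463% lower, and 0 of the 7 members had all Tg libraries below all NTg libraries, where 1.58% of all genes did. At an unadjusted p under 0.05, 2.68% of all genes were lower. Without Tg replicate 1 edgeR called 1 of the 7, Serpina3n, where 1.43% of all genes were called, and DESeq2 2, Serpina3n and Serpinb1a, where it called 2.94% (2.12% higher). With no filter edgeR called 1 of the 9, Serpina3n, where 0.295% of genes were called higher and 0.0252% lower. Of the 7, 3 had a higher and 4 a lower mean in Tg, with a median log2 fold change of -0.09 beside -0.0024 over all tested genes; without Tg replicate 1 the median was -0.02 beside -0.0015.

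To compare members with each other, CPM was divided by the length of each gene's merged exons in GENCODE M21. On that scale Serpini1 led in NTg at 41.5 ± 3.90 CPM per kilobase (SD, n = 4), followed by Serpine2 at 22.9 ± 0.777, Serpina3n at 20.9 ± 3.63 and Serpinb1a at 11.1 ± 1.76. Serpinh1 at 6.59 ± 0.537, Serpinb6a at 5.69 ± 0.487 and Serpinf1 at 4.82 ± 0.785 came next, and Serpina3i at 0.0150 and Serpina3m at 0.0073 were last. Serpine2 and Serpina3n overlapped in NTg (21.8 to 23.6 against 16.3 to 25.1), as did Serpinh1 with Serpinb6a, Serpinb6a with Serpinf1 and Serpina3i with Serpina3m, while the other neighbours in the order did not. In Tg Serpina3n led at 69.1 ± 29.5 CPM per kilobase, ahead of Serpini1 at 38.3 ± 6.06 and Serpine2 at 21.6 ± 1.23, and the order of the rest was as in NTg, with overlap between Serpina3n and Serpini1, Serpinh1 and Serpinb6a, and Serpina3i and Serpina3m. Tg replicate 1 did not share that order: its Serpina3n level of 26.5 lay below its Serpini1 level of 31.6. Merged exons of Serpine2 (8287 bases) and Serpini1 (7286 bases) are long, so their levels per kilobase are lowered if the forebrain uses shorter transcripts.

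**Figure D3:**
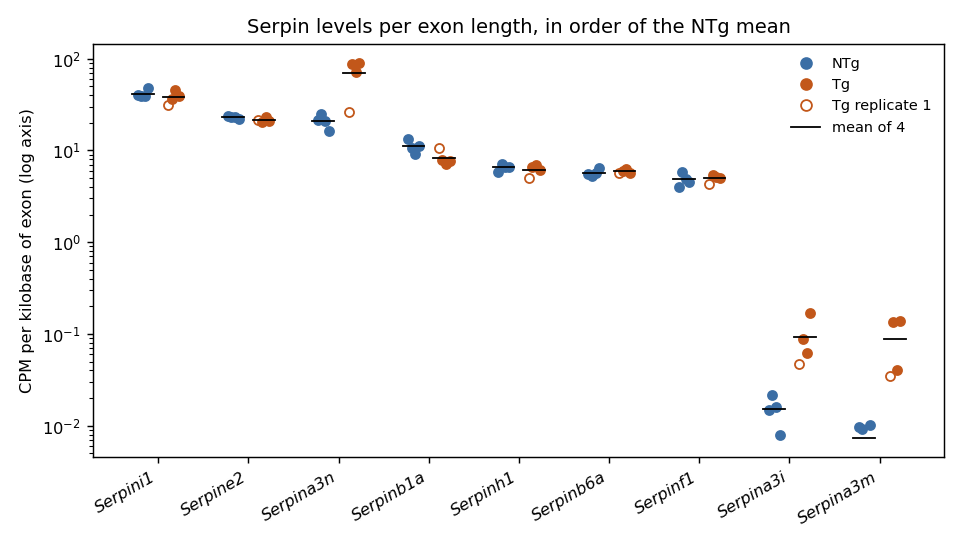
Level of the 9 serpins in CPM per kilobase of merged exon (log axis), ordered by the NTg mean; each point is a library, the open point is Tg replicate 1, and the line is the mean of 4 (the NTg library of Serpina3m with 0 counts has no point). Serpina3n has rank 3 among the NTg means, at 20.9, and rank 1 among the Tg means, at 69.1.

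The rest of the family was mostly silent. Of 56 other serpin genes listed, 13 were tested, 37 had counts but did not pass the filter (at most 0.309 CPM in any library) and 6 had no count in any library. The tested ones had a median log2 fold change of 0.14, with 7 higher and 6 lower; without Tg replicate 1 the median was -0.02, with 6 higher and 7 lower. The edgeR test called 0 of the 13, and DESeq2 called 1, Serpinf2, higher in Tg, as it did 1.29% of all genes. At an unadjusted p under 0.05 there were 3, all higher in Tg, a direction and threshold that 4.68% of all genes met. Serpinf2, alpha-2-antiplasmin, the chief inhibitor of plasmin, was at 0.281 to 0.741 CPM for NTg and 0.543, 2.61, 1.76 and 2.59 CPM for Tg (a log2 difference of 1.93 with SE 0.47 and edgeR adjusted p = 0.195). Like Serpina3n it was low in Tg replicate 1, and without that library edgeR called it (adjusted p = 0.00627). Serping1, the C1 inhibitor of complement, was at 8.62 to 11.6 CPM for NTg and 10.2, 17.6, 14.8 and 13.6 CPM for Tg (a log2 difference of 0.53 with SE 0.16 and edgeR adjusted p = 0.333), and edgeR called it without Tg replicate 1 (adjusted p = 0.0384). Without that library edgeR called 1.26% of all genes higher.

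Agt and Serpinb9, the most abundant of the other serpins by the NTg mean, overlapped between the genotypes. Agt, angiotensinogen, an astrocytic member of clade A without inhibitory function, was at 47.4 ± 10.1 CPM for NTg and 52.6 ± 16.1 CPM for Tg (SD, n = 4; edgeR adjusted p = 0.947). Its Tg replicate 1 was highest at 76.0 CPM; without it the Tg mean was 44.8 CPM and the log2 fold change turned from 0.15 to -0.08. Serpinb9, which inhibits granzyme B, was at 13.6 ± 0.784 and 12.8 ± 1.21 CPM (edgeR adjusted p = 0.921).

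Among 16 proteases that brain serpins are known to inhibit or that stand near them, 10 were tested, edgeR called 0 and DESeq2 called 3, all higher (1.29% of all genes), with a median log2 fold change of 0.04. The called genes were Ctsl, Cela1 and Plau, the last named after its values were seen. At an unadjusted p under 0.05, 4 were higher (4.68% of all genes) and 0 lower. Ctsl, the lysosomal cathepsin L and the most abundant of them over the 8 libraries, was at 97.0 ± 2.86 CPM for NTg and 126 ± 11.8 CPM for Tg (SD, n = 4; log2 fold change 0.38, edgeR adjusted p = 0.107). Cela1, a pancreatic-type elastase, was at 2.91 ± 0.153 and 5.45 ± 1.47 CPM (log2 fold change 0.90, adjusted p = 0.136), and Klk6, a kallikrein of oligodendrocytes, at 17.6 ± 4.06 and 36.5 ± 13.9 CPM (log2 fold change 1.05, adjusted p = 0.211). Klk6 was not called by DESeq2 (adjusted p = 0.0622). Ctsl, Cela1 and Klk6, the 3 with the smallest p of the list, had all Tg libraries above all NTg libraries, as did 2.62% of all tested genes. Microglial markers moved with them, a part that was not tested. Without Tg replicate 1, when 11 were tested, edgeR called Ctsl, Cela1, Klk6 and Plau, all higher (1.26% of all genes), and the median was 0.30.

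Clearance receptors of serpin complexes and receptors of Serpinf1 were all tested (13 genes, median log2 fold change 0.04), with 0 called by edgeR, 1 called higher by DESeq2 (1.29% of all genes) and 3 higher at an unadjusted p under 0.05 (4.68%). Lrp1, the main clearance receptor, was at 384 ± 19.8 CPM for NTg and 394 ± 21.4 CPM for Tg (edgeR adjusted p = 0.959). Plaur, the urokinase receptor, was at 0.782 and 1.33 CPM (adjusted p = 0.495). Of 16 genes of collagen chain synthesis, the clients and partners of Serpinh1, 0 were called by edgeR or DESeq2 and 0 had an unadjusted p under 0.05, with a median of -0.00060. P4hb, a subunit of prolyl hydroxylase and the most abundant, was at 111 ± 2.09 and 114 ± 5.26 CPM.

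Genes often reported beside Serpina3n mostly had higher means in Tg as well. The lists share some genes, so their counts are not separate. Osmr is on the reactive astrocyte and the JAK-STAT3 list. Klk6 is on the protease and the disease-associated oligodendrocyte list, and Sgk1 on the latter and the glucocorticoid list. Of 16 reactive astrocyte genes 15 had a higher mean, with a median log2 fold change of 0.93; edgeR called 1, Cxcl10 (0.00926% of all genes were called higher), DESeq2 9 (1.29%) and 10 had an unadjusted p under 0.05 (4.68%), all higher. Without Tg replicate 1 edgeR called 10 (1.26%). The microglial markers given above moved with these lists, and their part was not tested. Gfap, the intermediate filament of reactive astrocytes, was at 392 to 461 CPM for NTg and 607, 1940, 1533 and 2057 CPM for Tg, and its 4 Tg libraries were in the same order as for Serpina3n. Other genes named below had that order too, C4b, Ip6k3 and Tyrobp among them, while some, such as Trem2, did not. The share of all genes with that order was not computed. Of 12 genes reported in disease-associated oligodendrocytes 10 had a higher mean (median 0.45), edgeR called 0, DESeq2 3 and 5 had an unadjusted p under 0.05, all higher (over all genes, 1.29% and 4.68%), and edgeR called 4 without Tg replicate 1 (1.26%). Of the 10 oligodendrocyte identity markers 9 had a lower mean, with a median of -0.15. C4b, a complement component, was at 92.1 to 209 CPM for NTg and 201, 387, 344 and 399 CPM for Tg (edgeR adjusted p = 0.141), where NTg replicate 1 at 209 CPM exceeded Tg replicate 1.

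JAK-STAT3 signalling, which is known to drive reactive astrocyte genes, had 16 tested members with a median of 0.30, of which edgeR called 0, DESeq2 6 and 8 had an unadjusted p under 0.05, all higher (over all genes, 1.29% and 4.68% in that direction). The edgeR test called 6 without Tg replicate 1 (1.26% of all genes), with a median of 0.41. Stat3 was at 63.0 ± 3.98 CPM for NTg and 81.8 ± 7.76 CPM for Tg (SD, n = 4; log2 fold change 0.38, edgeR adjusted p = 0.122), Osmr, the oncostatin M receptor, at 6.79 ± 1.55 and 20.6 ± 6.97 CPM (adjusted p = 0.107) and Lif, a cytokine of the same family, at 0.673 ± 0.0354 and 1.73 ± 0.468 CPM (adjusted p = 0.107). Glucocorticoid targets, included because Serpina3n also responds to these hormones, had a median of -0.02 over 9 genes (0.05 without Tg replicate 1), with 0 called by edgeR or DESeq2 and 0 at an unadjusted p under 0.05. The glucocorticoid receptor Nr3c1 was at 130 ± 8.37 and 124 ± 10.7 CPM.

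The genes most like Serpina3n across the 8 libraries were found by the root mean square difference of log2 CPM, each relative to its own NTg mean. The search covered 13992 tested genes with a mean of at least 1 CPM and a symbol not of the predicted or clone type. Gfap was nearest, at a difference of 0.15, where the median gene stood at 1.26. The next were Hcar2 (0.25), a hydroxycarboxylic acid receptor of myeloid cells, Ip6k3 (0.26), an inositol hexakisphosphate kinase, and Cybrd1 (0.27), a ferric reductase. Ggta1 (0.30), Trem2 (0.31), the lipid receptor of microglia, Bcl3 (0.32), a nuclear IkB protein, and Tyrobp (0.33), the adaptor of Trem2, completed the 8. The nearest serpin was Serpinf2, which ranked 26 at 0.47, and Serping1 had rank 236. The other 6 tested members ranked between 2225 (Serpinf1, 1.19) and 13779 (Serpinb1a, 1.59). On this scale a gene with equal levels in both genotypes lies far from Serpina3n by construction. The ranks therefore largely restate the fold changes given above and are no separate result. These distances describe the 8 libraries, and all of the nearest genes share the low value of Tg replicate 1.

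**Figure D4:**
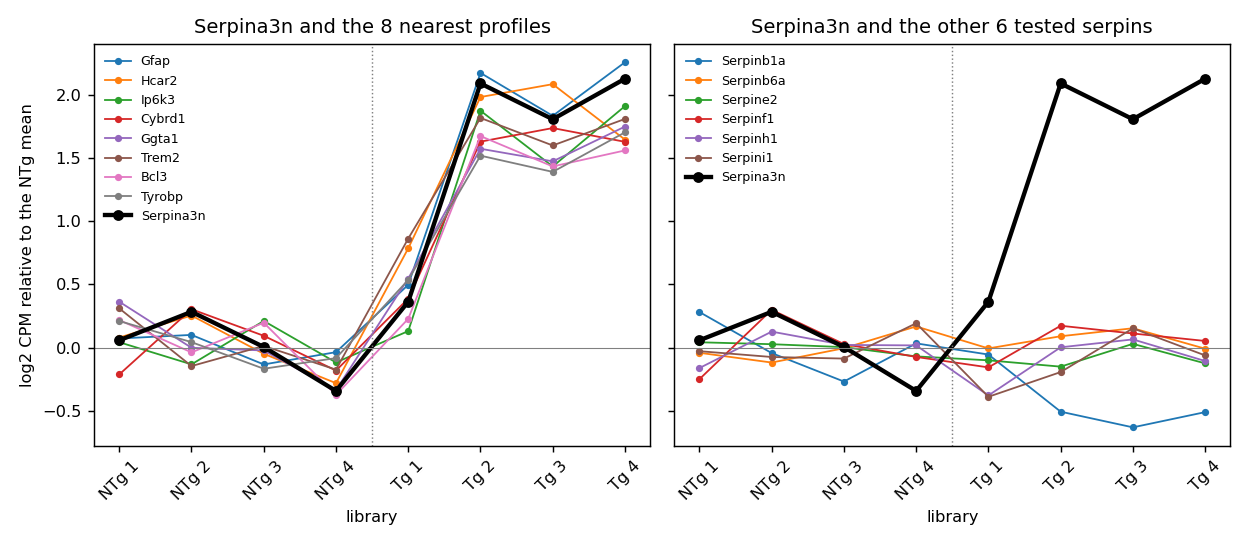
Log2 CPM relative to each gene's NTg mean (y axis) in the 8 libraries (x axis; lines only join the points of a gene), for Serpina3n in black with the 8 nearest genes on the left and the other 6 tested serpins on the right. Gfap follows Serpina3n with a root mean square difference of 0.15, and both are low in Tg replicate 1.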

How the data were processed

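The authors deposited 1 table of read counts, unnormalized, with an Ensembl gene in each row and a library in each of 8 columns. The submitters' processing notes name STAR, DESeq2 and GRCm39, without versions. Which program counted the reads, on which annotation release and with which strand setting, is not given in the sources used here, and the library kit in the labels does not mark strand. Symbols were matched by Ensembl identifier (52073 of 56748, holding 99.58% of counts); 0 columns were left unused. Genes were kept by filterByExpr (minimum count 10, minimum total 15), scaled with TMM and tested with edgeR 4.0.16 (R 4.3.3), quasi-likelihood F test, Benjamini-Hochberg adjustment over all 21588 genes, threshold 0.05. CPM uses TMM-scaled library sizes, and the SE is the log2 fold change over the square root of F. Log2 ratios use a prior count of 2 and exact two-sided permutation tests. DESeq2 1.42.0 (without independent filtering) and limma 3.58.1 were alternatives.

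Members and gene lists were chosen with earlier results of these data known. Named genes are the members, the most abundant tested gene and the 3 with the smallest p of each list, and the 8 profiles nearest to Serpina3n; not all of those are printed, some results are not reported here, and Serpinb1b, Serpina3c, Plau and App were named besides, all but App after their values were seen. The lists hold the other serpins by clade, proteases, receptors, collagen synthesis, reactive astrocyte, disease-associated oligodendrocyte, JAK-STAT3 and glucocorticoid genes, and cell type markers. Replicate numbers are in the labels, but nothing states that they pair animals or that each library is a separate animal, so p-values measure the spread between these libraries. All libraries carry the same batch value. Replicate pairs differed by more than sampling noise (chi-square per degree of freedom 10.9 to 48.9). Pairs without NTg replicate 4 gave 10.9 to 20.1 in NTg, and pairs without Tg replicate 1 gave 22.5 to 24.5 in Tg. Tested on simulated counts (21308 genes, 200 changed), edgeR recovered 47.8% of 1.5-fold, 65.7% of 2-fold and 89.4% of 3-fold changes, with 7 false calls. The simulation drew every gene and library independently, with no shift shared by a whole library. Its rates therefore do not give the power of the test in these libraries.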

Additional observations from a re-analysis of the deposited data

Results flagged for a closer look

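In 18 groups of 4 libraries (9 serpins, 2 genotypes), 1 library stood apart from its group by the gap to its nearest neighbour relative to the group's range, where chance gives about 1 in 20. It was NTg replicate 3 of Serpina3m, at 0 CPM against 0.0159 to 0.0176 CPM in the other NTg libraries, which is 0 against 1 count.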

How the results depend on the processing

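Serpina3n was higher in Tg under all 17 alternatives (log2 fold change 1.57 to 2.00). It passed the threshold with DESeq2 (1.72, adjusted p = 0.00205), with no filter on low counts (1.73, 0.0187), without Tg replicate 1 (2.00, 0.000356) and, in a fit chosen after seeing the data, with DESeq2 without that library (1.99, 1.72e-46). That last fit also called Serpinb1a (-0.57, adjusted p = 0.000417). With 1 library left out, log2 fold changes ran from -0.56 to -0.32 for Serpinb1a, 0.02 to 0.11 for Serpinb6a, -0.13 to -0.07 for Serpine2, -0.16 to -0.02 for Serpinh1, -0.21 to -0.03 for Serpini1 and -0.044 to 0.15 for Serpinf1, whose sign turned without NTg replicate 1 (-0.044) and Tg replicate 2 (-0.0087). The count of members called, 0 in the main test and at an FDR of 0.1, was 1 with DESeq2 and with no filter, 0 to 1 with 1 library left out, and 2 with DESeq2 without Tg replicate 1. For the other serpins it was 0, and 1 with DESeq2, 0 to 2 with 1 library left out and 2 with DESeq2 without Tg replicate 1. Over all genes, 3 calls became 127 with no filter, 334 with DESeq2, 16 without NTg replicate 1, 314 without Tg replicate 1 and 9 without Tg replicate 2. The cause of these differences was not tested.

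With the replicate number as a block, the log2 fold change of Serpina3n was 1.61 (adjusted p = 0.250), 0 members were called and 1 gene in all. Same-numbered libraries did not deviate together (r over genes -0.03 to 0.16), nor did each correlate best with its own number, so the numbers were not taken as pairs. Of the 8 ratios with Serpina3n, 5 passed, all of them sharing the Serpina3n counts. Within same-numbered pairs or with 1 library left out 0 passed. The smallest possible exact p is 0.125 and 0.0571 there, so these settings show nothing either way. The ratio to Serpina3m turned from -0.25 to 0.41 and that to Serpina3i from -0.13 to 0.37 with a prior count of 5; a prior count of 0.5 gave -1.21 and -0.64. With 1 library left out they ran from -0.54 to -0.099 and from -0.31 to 0.067. The raw count ratio could not be formed for Serpina3m, which has a library at 0.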
